A study of Mus musculus with 18 samples.

Results

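The cathepsin genes encode proteases that work mainly inside lysosomes, and 10 of them, Ctsa, Ctsb, Ctsc, Ctsd, Ctse, Ctsh, Ctsk, Ctsl, Ctss and Ctsz, were followed here in mouse liver. They were taken by symbol from the deposited expression tables, where each of the 10 had a row in both tables among 33235 genes, and all 10 passed the filter on low values in both. The livers came from wild-type mice that received an antisense oligonucleotide (ASO), a short strand that pairs with a transcript and leads to its loss. One ASO was directed at Mdm2, the gene of the main ubiquitin ligase of p53, and the other was a control ASO. Both carried GalNAc, a sugar taken up by the asialoglycoprotein receptor of hepatocytes, and all mice were fed either HFHC, a diet given only by this abbreviation, or CDAHFD, a high-fat diet that lacks choline and takes its protein as defined amino acids. There was no group on ordinary chow and none without an ASO, and the labels used here give no strain, sex, age, dose or duration.

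On HFHC, 4 control ASO livers (replicates 1, 2, 4 and 5) were compared with 3 Mdm2 ASO libraries (replicates 6-7, 9 and 10). On CDAHFD, 5 control ASO livers (replicates 1 to 5) were compared with 5 Mdm2 ASO livers (replicates 6 to 10). On HFHC, the columns of replicates 6 and 7 with the Mdm2 ASO were identical and counted as 1 library, 6-7, so the 18 samples gave 17 libraries. The labels do not say whether the replicates came from separate experiments, so p-values measure the spread between these samples only.

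Cathepsins are made as inactive precursors, carried to the lysosome by mannose 6-phosphate receptors and switched on by cleavage at acid pH. Cathepsins B, C, H, K, L, S and Z are cysteine proteases, cathepsins D and E are aspartic proteases, and cathepsin A is a serine carboxypeptidase. In liver, hepatocytes and macrophages both use the lysosomal enzymes for protein turnover, whereas cathepsin S is known mainly from macrophages and other antigen-presenting cells, and cathepsin K from osteoclasts. Cystatins and some serpins bind cathepsins and block them.

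The results turn most on Ctss and Ctsc. Among the 7 members with a promoter sequence, Ctsd held the most copies of the lysosomal motif CACGTG. The upstream sequences of these 3 genes, which rose together on HFHC, are shown first. They hold the 250 bases before the annotated start, 5′ to 3′ on the gene's strand, from RefSeq on GRCm38.p6, which is an older build than the GRCm39 of the deposited counts. Ctss is at chr3:95526536-95526785 (plus strand), Ctsc at chr7:88277835-88278084 (plus strand) and Ctsd at chr7:142387828-142388077 (minus strand). Capitals mark the motif matches described below.
Ctss: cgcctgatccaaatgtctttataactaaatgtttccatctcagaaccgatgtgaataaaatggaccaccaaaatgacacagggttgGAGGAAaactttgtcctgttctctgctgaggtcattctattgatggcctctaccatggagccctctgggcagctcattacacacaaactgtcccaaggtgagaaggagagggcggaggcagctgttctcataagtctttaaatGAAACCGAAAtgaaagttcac
Ctsc: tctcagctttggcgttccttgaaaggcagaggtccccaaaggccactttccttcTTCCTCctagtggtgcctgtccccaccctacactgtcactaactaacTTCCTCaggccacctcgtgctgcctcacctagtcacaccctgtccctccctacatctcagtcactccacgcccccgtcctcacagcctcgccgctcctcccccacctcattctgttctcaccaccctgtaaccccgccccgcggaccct
Ctsd: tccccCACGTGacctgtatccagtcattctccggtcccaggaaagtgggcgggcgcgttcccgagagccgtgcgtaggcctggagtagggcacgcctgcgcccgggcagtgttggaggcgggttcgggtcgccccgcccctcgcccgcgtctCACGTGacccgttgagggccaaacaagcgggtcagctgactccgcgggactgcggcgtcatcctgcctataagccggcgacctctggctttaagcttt

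Of the 10 members, 7 had a promoter in that RefSeq table, and Ctsa had 2 of them. Ctsb, Ctse and Ctsh had none there. Each window was searched on both strands for CACGTG, the core bound by TFEB and related factors at lysosomal genes, for GAGGAA, a core bound by the myeloid factor PU.1, for a pair of GAAA with any 2 bases between them, a pattern bound by interferon regulatory factors, and for the p53 half-site consensus. None of these matches overlapped another. Ctsd held CACGTG at positions -245 to -240 and -98 to -93 from the start, Ctsl at -236 to -231 and the second Ctsa promoter at -12 to -7. Ctss held GAGGAA at -164 to -159 and the GAAA pair at -21 to -12. In Ctsc, GAGGAA lay on the opposite strand, read as TTCCTC above, at -196 to -191 and -149 to -144. Ctsk also held GAGGAA, on the gene's strand at -233 to -228 and on the opposite strand at -58 to -53. Ctsz held no match, and 0 of the 8 member promoters held the p53 half-site in these windows. Among all 32851 promoter windows of the same length, 6.02% held CACGTG, 23.3% held GAGGAA, 2.98% held the GAAA pair and 7.13% held the p53 half-site. The matches describe letters only, and no binding was measured.

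Reads assigned to genes ranged from 17770748 to 18798144 per library on HFHC and from 22376178 to 31453055 on CDAHFD. The deposited values are reads per gene divided by 1 factor per library, called normalized counts here. The tables of the 2 diets were normalized separately, so levels are compared within a diet only. Members had from 9 reads (Ctse, in 1 CDAHFD library) to 30320 reads (Ctsl) per library. The hepatocyte markers read were Alb, Ttr, Apoa1, Apob, Serpina1a, Tat, Cps1 and Asgr1. On HFHC they summed to 1126905 to 1378119 normalized counts in the controls and 1322713 to 2000550 with the Mdm2 ASO. On CDAHFD the sums were 1460070 to 2251626 in the controls and 1558331 to 1950009 with the Mdm2 ASO. None of the 8 passed the test on either diet. Mdm2 itself, the target, was at 907, 954, 963 and 956 normalized counts in the control livers on HFHC and at 420, 362 and 304 in the Mdm2 ASO libraries, which is 38.3% of the control mean. On CDAHFD it was at 1443 to 1650 in the controls and at 564 to 861 with the Mdm2 ASO, which is 41.3% of the control mean.

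Per kilobase of transcript, the control livers on HFHC held most of Ctsl, with 8627 ± 1118 normalized counts per kb (SD, n = 4), followed by Ctsz with 5154 ± 215 and Ctsb with 3696 ± 307. Ctsd (2793 ± 126) and Ctsh (2371 ± 321) followed and overlapped in their ranges. Ctsa (1364 ± 88.6), Ctss (1115 ± 138) and Ctsc (435 ± 109) were lower, each with no overlap with its neighbour. Ctsk (53.7 ± 16.2) and Ctse (30.7 ± 5.50) were far below the others and overlapped each other. The control livers on CDAHFD held the members in nearly the same order, with Ctsl at 12008 ± 801 per kb (n = 5) and Ctse at 16.3 ± 5.40, except that Ctsd (4435 ± 591) stood above Ctsb (4132 ± 434), with overlapping ranges, and Ctss (2411 ± 509) above Ctsa (1690 ± 79.2), also with overlap. The place of Ctsl depends on its length: the level uses its principal transcript of 1971 bases, while the union of all its annotated exons is 6489 bases and gives 2620 per kb on HFHC, below the 5154 of Ctsz.

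**Figure D1:**
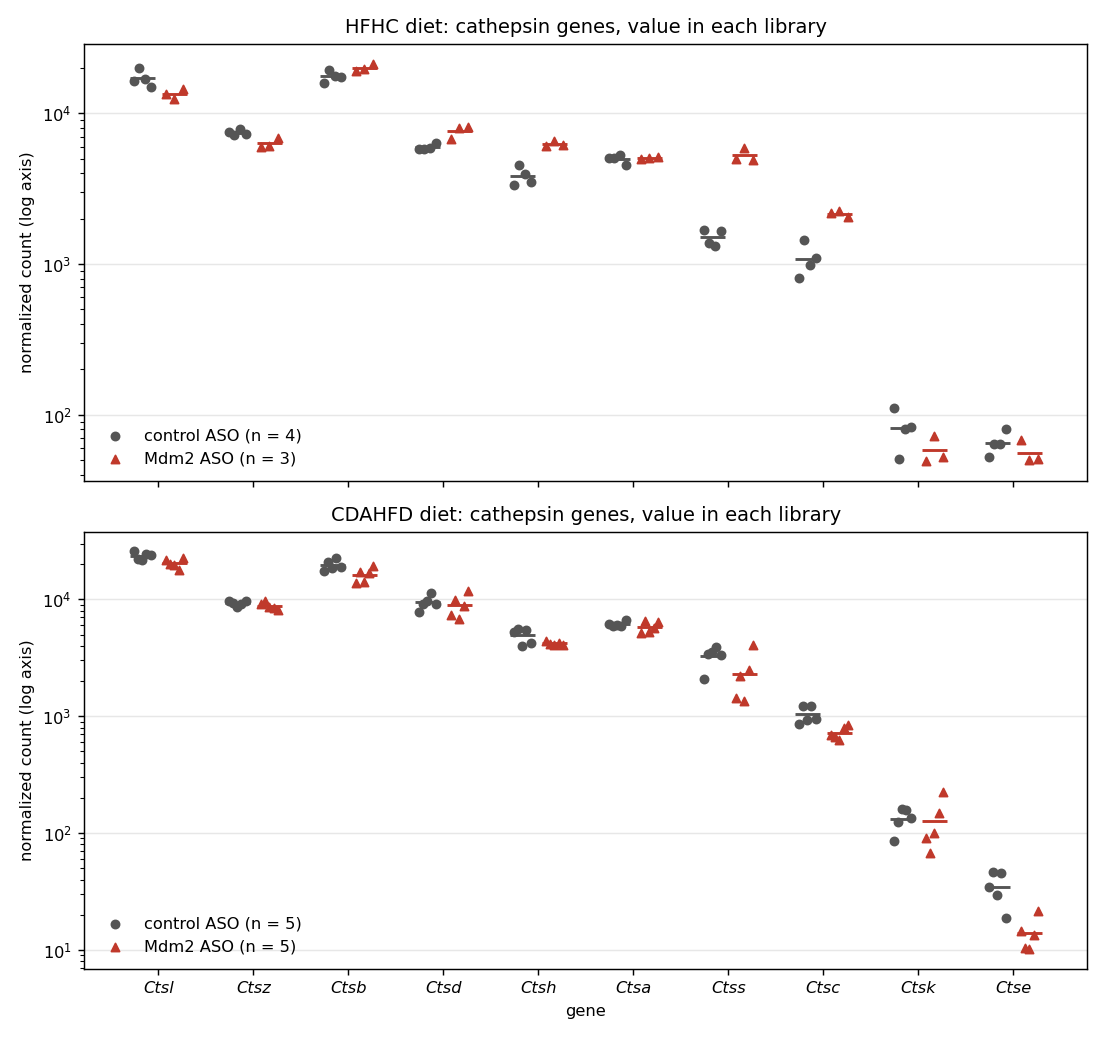
Normalized count of each cathepsin gene (log axis) in each library, HFHC above and CDAHFD below, with circles for the control ASO, triangles for the Mdm2 ASO and lines at the group means. On HFHC the Mdm2 ASO libraries lie above every control for Ctss, Ctsc, Ctsh and Ctsd and below every control for Ctsl and Ctsz, and on CDAHFD the groups separate for Ctsc alone.

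The first comparison asks which cathepsin transcripts differed between Mdm2 ASO and control ASO livers on HFHC. Ctss, Ctsc, Ctsh and Ctsd rose, from 1.28-fold for Ctsd to 3.47-fold for Ctss, and no member fell. By limma-trend with Benjamini-Hochberg adjustment over 17441 genes, 4 of the 10 members passed an adjusted p of 0.05, all upward, where 30.6% of all tested genes passed, 16.8% upward and 13.8% downward. The share of members that passed in either direction is thus close to that of all genes. At an unadjusted p under 0.05 the count was 6, against 41.2% of all tested genes, the further ones being Ctsl and Ctsz, both lower. edgeR on the recovered reads also called 4, and DESeq2 called 6, adding Ctsl and Ctsz as lower. Shares of all genes under these tools are not given here, and over 8 alternative settings 5169 to 8182 genes passed. The median log2 fold change of the members was 0.11, against -0.0061 for all tested genes, and they ranged from -0.45 to 1.80. The groups did not overlap for 6 of the 10, Ctsc, Ctsd, Ctsh, Ctsl, Ctss and Ctsz, where this held for 38.7% of all tested genes.

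Ctss encodes cathepsin S, which trims the invariant chain so that MHC class II molecules can load peptide. It was at 1678, 1379, 1322 and 1663 normalized counts in the control livers on HFHC and at 4946, 5875 and 4913 in the Mdm2 ASO libraries. The lowest Mdm2 ASO library was well above the highest control. The ratio of the means was 3.47, and the log2 fold change was 1.80 (SE 0.11, 95% interval 1.55 to 2.05, adjusted p = 2.98e-06 by limma-trend).

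Ctsc encodes cathepsin C, the dipeptidyl peptidase that activates the serine proteases of neutrophils, mast cells and cytotoxic lymphocytes. Its values were 805, 1450, 988 and 1093 in the controls and 2168, 2232 and 2033 with the Mdm2 ASO. Control replicate 2 stood highest of the controls and still lay below all 3 Mdm2 ASO libraries. The ratio of the means was 1.98, with a log2 fold change of 1.02 (SE 0.17, adjusted p = 0.00153 by limma-trend).

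Ctsh encodes cathepsin H, an aminopeptidase. It was at 3351, 4507, 3964 and 3515 in the controls and at 6038, 6491 and 6146 with the Mdm2 ASO, again with no overlap. It rose 1.62-fold by the means (log2 0.71, SE 0.11, adjusted p = 0.00101 by limma-trend).

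Ctsd encodes cathepsin D, the main aspartic endopeptidase of lysosomes. It was at 5774, 5770, 5882 and 6335 in the controls and at 6787, 7966 and 8048 with the Mdm2 ASO. The gap between library 6-7 and the highest control was small beside those of Ctss and Ctsh. The rise was 1.28-fold (log2 0.35, SE 0.09, adjusted p = 0.0158 by limma-trend), and it missed the threshold without Mdm2 ASO replicate 9 (log2 0.32, adjusted p = 0.0734). On GRCm38 annotation, 34.4% of its exonic length is shared with the same-strand gene model Gm49369, and how reads in shared exons were assigned is not given in the sources used here.

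Ctsl and Ctsz went the other way without passing the test. Ctsl, which encodes the endopeptidase cathepsin L, was at 16373, 20049, 16791 and 14804 in the controls and at 13404, 12446 and 14431 with the Mdm2 ASO. Its log2 fold change was -0.33 (95% interval -0.62 to -0.05, adjusted p = 0.0712 by limma-trend). Ctsz, which encodes the carboxypeptidase cathepsin Z, was at 7519, 7112, 7817 and 7262 in the controls and at 5969, 6092 and 6832 with the Mdm2 ASO. Its log2 fold change was -0.24 (95% interval -0.43 to -0.05, adjusted p = 0.0585 by limma-trend). For both genes every Mdm2 ASO library was below every control, and both passed with DESeq2 (adjusted p = 0.0175 for Ctsl and 0.0144 for Ctsz). Over 8 alternative settings with all libraries kept, the log2 fold change of Ctsl ran from -0.39 to -0.20, and 2 settings passed. That of Ctsz ran from -0.28 to -0.12, and 3 settings passed.

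Ctsb, which encodes cathepsin B, an endopeptidase that also cuts dipeptides from the carboxyl end, was at 15767, 19324, 17630 and 17400 in the controls and at 19122, 19709 and 21228 with the Mdm2 ASO. These ranges overlapped, and the log2 fold change was 0.19 (95% interval -0.06 to 0.45, adjusted p = 0.224 by limma-trend). Ctsa, which encodes the protein that shields lysosomal galactosidase and neuraminidase, was nearest to equal, at 4524 to 5295 in the controls and 4993 to 5122 with the Mdm2 ASO (log2 0.03, 95% interval -0.15 to 0.20). Reads of Ctsb and Ctsa can come from exons shared with the opposite-strand genes Fdft1 (12.8% of exonic length) and Pltp (10.5%), and those of Ctsl from exons shared with Gm47123 on the opposite strand (26.9%) and Gm49230 on the same strand (6.09%). Whether counting used the strand is not given in the sources used here.

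Ctsk, which encodes the collagen-degrading enzyme of osteoclasts, rested on 45 to 107 reads per library on HFHC. It was at 110, 50.5, 80.9 and 82.9 normalized counts in the controls and at 49.1, 72.8 and 52.5 with the Mdm2 ASO (log2 -0.45, 95% interval -1.05 to 0.15). Ctse, which encodes an aspartic protease of stomach epithelium and immune cells found outside the lysosome, was at 52.6, 64.0, 63.6 and 80.9 in the controls and at 67.6, 50.1 and 50.5 with the Mdm2 ASO (log2 -0.22, 95% interval -0.67 to 0.24). The groups overlapped for both genes, and a difference within these wide intervals was not detectable.

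Markers of other cells moved with these results on HFHC, where 16.8% of all tested genes rose and 13.8% fell at the same threshold. Of 12 Kupffer cell and macrophage markers, 7 rose and 0 fell by limma-trend, among them C1qb (log2 2.36) and Csf1r (log2 1.89), and their summed level was 8931 to 14588 in the controls and 34452 to 39722 with the Mdm2 ASO. Clec4f (log2 0.32), Timd4 (-0.06), Vsig4 (0.60), Marco (1.64) and Cd163 (-1.12) of that list did not pass. No marker of that list was at 0 in any library. Of 12 monocyte and neutrophil markers, 10 rose, with a summed level of 2762 to 5329 in the controls and 11046 to 13332 with the Mdm2 ASO, and Ly6g was at 0 in some libraries. Of the other lists, 5 of 7 B and plasma cell markers, 3 of 8 T and NK cell markers, 7 of 7 red blood cell markers and 4 of 6 sinusoidal endothelial markers rose, while 5 of 7 cholangiocyte markers fell. Of 8 stellate cell and fibroblast markers 3 rose and 1 fell, and of 8 lipid-associated macrophage markers 1 rose and 4 fell. The part of these cells in the rise of Ctss, Ctsc, Ctsh and Ctsd was not tested. In bulk liver, fewer cells of a type and less RNA per cell cannot be told apart.

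**Figure D2:**
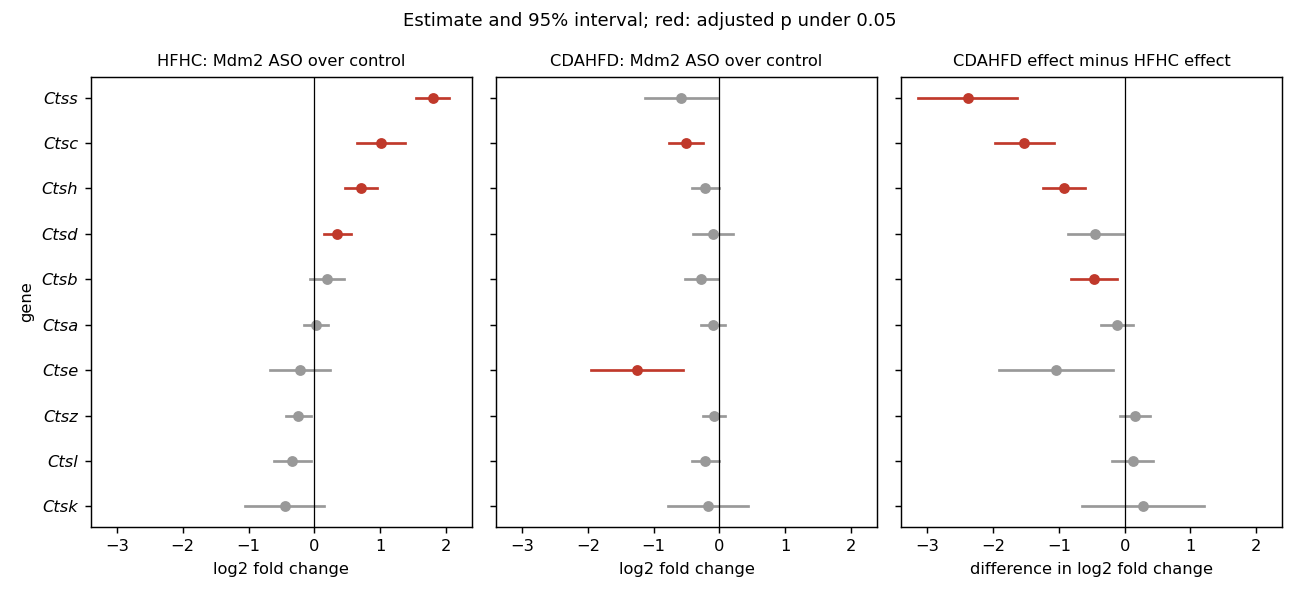
Log2 fold change of each cathepsin gene, Mdm2 ASO over control ASO, with its 95% interval from limma-trend, on HFHC (left) and CDAHFD (middle), and the difference between the diets' effects (right), with red for an adjusted p under 0.05. Ctss, Ctsc, Ctsh and Ctsd are red on HFHC, Ctsc and Ctse on CDAHFD, and Ctss, Ctsc, Ctsh and Ctsb in the difference.

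On CDAHFD the same comparison gave lower values with the Mdm2 ASO. Ctsc fell to 0.698 and Ctse to 0.404 of the control mean, and no member rose. By limma-trend, 2 of the 10 members passed among 16803 tested genes, where 13.0% of all genes passed, 6.12% upward and 6.86% downward. edgeR and DESeq2 also called 2. Shares of all genes under these tools are not given here, and over 8 alternative settings 1976 to 2956 genes passed. At an unadjusted p under 0.05 the count was 6 members, all lower, against 28.2% of all tested genes. The log2 fold changes of all 10 were negative, from -1.26 to -0.08, with a median of -0.21 against -0.0021 for all tested genes. The groups did not overlap for 1 member, Ctsc, where this held for 10.6% of all tested genes.

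Ctsc was at 860, 1231, 920, 1234 and 943 normalized counts in the control livers on CDAHFD and at 687, 670, 630, 789 and 845 with the Mdm2 ASO. The highest Mdm2 ASO liver, replicate 10, was just below the lowest control, replicate 1. The log2 fold change was -0.51 (SE 0.12, 95% interval -0.77 to -0.25, adjusted p = 0.0147 by limma-trend). This is the member that passed on both diets, upward on HFHC and downward on CDAHFD.

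Ctse was at 34.3, 46.2, 29.4, 45.1 and 18.7 in the controls and at 14.7, 10.5, 10.2, 13.4 and 21.5 with the Mdm2 ASO. Control replicate 5 lay within the range of the Mdm2 ASO livers, and the other controls lay above it. The log2 fold change was -1.26 (SE 0.33, adjusted p = 0.0221 by limma-trend). It rests on 9 to 56 reads per library, and it missed the threshold without control replicate 2 (adjusted p = 0.0728), control replicate 4 (0.0663), Mdm2 ASO replicate 7 (0.0509) or Mdm2 ASO replicate 8 (0.0558). Since cathepsin E is known from stomach, 12 stomach, pancreas and gut markers were read beside it. On CDAHFD their summed level was 622 to 783 in the controls and 769 to 853 with the Mdm2 ASO, and Gkn1, Gkn2 and Prss2 were at 0 reads in all 10 libraries. Of the 12 markers, 9 were at 0 reads in some CDAHFD library, so the sum is no measure of stomach tissue. Pga5 had 5, 1, 2, 0 and 1 reads in the controls and 0, 0, 2, 1 and 0 with the Mdm2 ASO. Of the 4 markers tested 0 passed by limma-trend, with Tff2 at a log2 fold change of 1.96 (adjusted p = 0.0615). Their part in the value of Ctse was not tested.

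Ctss was at 2094, 3436, 3527, 3916 and 3358 in the controls and at 1440, 2195, 1354, 2482 and 4089 with the Mdm2 ASO. Control replicate 1 was low and Mdm2 ASO replicate 10 was high, above every control. The log2 fold change was -0.59 (95% interval -1.13 to -0.04, adjusted p = 0.145 by limma-trend), and without Mdm2 ASO replicate 10 it was -0.82 (adjusted p = 0.0168). That library also had the highest Ctsd and Ctsk of all CDAHFD livers and the highest sum of lipid-associated macrophage markers, 30798 against 11147 to 17738 in the other Mdm2 ASO livers and 13135 to 24259 in the controls. Without control replicate 3, Ctsh passed as well (log2 -0.28, adjusted p = 0.0498).

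Ctsb was at 17365, 20808, 18516, 22537 and 18772 in the controls and at 13820, 17178, 14015, 16854 and 19451 with the Mdm2 ASO (log2 -0.28, 95% interval -0.52 to -0.03, adjusted p = 0.132 by limma-trend). Ctsh was at 5277, 5545, 4026, 5462 and 4265 in the controls and at 4425, 4156, 4050, 4276 and 4110 with the Mdm2 ASO. The Mdm2 ASO livers were tightly grouped near the lower end of the controls, with a log2 fold change of -0.21 (95% interval -0.42 to -0.01, adjusted p = 0.165 by limma-trend). Ctsl was at 25742, 22302, 21898, 24426 and 23972 in the controls and at 21905, 20163, 19664, 17920 and 22516 with the Mdm2 ASO (log2 -0.21, adjusted p = 0.164 by limma-trend). In all 3 the ranges overlapped.

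For the other 4 members the intervals spanned 0. Ctsd was at 7848, 9160, 9778, 11299 and 9078 in the controls and at 7288, 9916, 6839, 8799 and 11901 with the Mdm2 ASO (log2 -0.10, 95% interval -0.40 to 0.21). Ctsa was at 5938 to 6653 in the controls and 5202 to 6505 with the Mdm2 ASO (log2 -0.09, 95% interval -0.28 to 0.09). The Ctsz livers ranged from 8614 to 9704 and from 8157 to 9703 (log2 -0.08, 95% interval -0.25 to 0.09), which as a percent change runs from -15.7% to 6.40%. Ctsk was at 85.8, 124, 161, 158 and 136 in the controls and at 90.1, 67.0, 101, 147 and 225 with the Mdm2 ASO (log2 -0.17, 95% interval -0.78 to 0.44). Its spread with the Mdm2 ASO, a coefficient of variation of 49.7%, was wider than in the controls (22.9%).

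The myeloid marker lists held few calls on CDAHFD, where 13.0% of all tested genes passed. Of the 12 Kupffer cell and macrophage markers 0 rose and 1 fell by limma-trend, Cd5l (log2 -0.84, adjusted p = 0.0174), and the summed level was 7113 to 11881 in the controls and 6961 to 10733 with the Mdm2 ASO. Of 11 tested monocyte and neutrophil markers 0 passed, with sums of 4079 to 8880 and 2928 to 8597. Of the lipid-associated macrophage markers 2 of 8 fell, Cd9 (log2 -1.06) and Lpl (log2 -0.998). Control replicate 1 and Mdm2 ASO replicates 6 and 8, the lowest in Ctss, had Kupffer cell and macrophage sums of 7113, 6961 and 7127. The other 7 livers had 9160 to 11881. Mdm2 ASO replicate 7, with Ctss at 2195 against 2094 in control replicate 1, had a sum of 9843. These livers were picked after their values were seen. The part of macrophages in the values of Ctss was not tested.

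The difference between the diets was tested directly, with the effect on HFHC subtracted from that on CDAHFD, over 16333 genes. Of the 10 members 4 passed by limma-trend, where 23.5% of all tested genes passed, and all 4 had the lower effect on CDAHFD. The median difference was -0.46 for the members and 0.0063 for all tested genes. Shares of all genes by direction are not given here. Ctss differed most, by -2.39 on the log2 scale (SE 0.36, 95% interval -3.14 to -1.63, adjusted p = 8.94e-05). Ctsc differed by -1.53 (SE 0.21, adjusted p = 4.30e-05 by limma-trend) and Ctsh by -0.92 (SE 0.15, adjusted p = 2.00e-04 by limma-trend). Ctsb differed by -0.47 (SE 0.17, adjusted p = 0.0467 by limma-trend), with an effect of 0.19 on HFHC and -0.28 on CDAHFD that passed on neither diet alone. The call of Ctsb was lost when any 1 of 12 of the 17 libraries was left out, with adjusted p from 0.0518 to 0.104.

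The differences of Ctse (-1.04, adjusted p = 0.0756 by limma-trend) and Ctsd (-0.45, adjusted p = 0.117 by limma-trend) did not pass, and both passed without Mdm2 ASO replicate 10 of CDAHFD (adjusted p = 0.0320 and 0.0252). For the remaining members the difference was -0.12 for Ctsa (95% interval -0.36 to 0.13), 0.12 for Ctsl (-0.19 to 0.44), 0.16 for Ctsz (-0.07 to 0.39) and 0.28 for Ctsk (-0.65 to 1.20). Those of Ctsl and Ctsz turned negative after quantile normalization, at -0.06 and -0.0027. The diet effect itself was not tested, because the tables were normalized separately.

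The make-up of the 10 transcripts shifted on HFHC. Taking the level per kb of each member as a share of their sum, Ctss made up 4.38% ± 0.752 (SD, n = 4) in the controls and 13.4% ± 1.42 (n = 3) with the Mdm2 ASO, with no overlap. Ctsl made up 33.6% ± 2.42 and 23.5% ± 1.58, Ctsz 20.2% ± 1.59 and 15.1% ± 0.661, and Ctsh 9.22% ± 0.719 and 13.3% ± 0.569. Ctsb held 14.4% ± 0.678 and 14.5% ± 0.329. With the Mdm2 ASO on HFHC, Ctsz, Ctsb, Ctss, Ctsh and Ctsd lay between 4370 and 3573 per kb, in that order, and each overlapped the next, although the lowest values of Ctsz (4142) and Ctsb (4032) were above the highest of Ctsh (4014) and Ctsd (3784). Ctss was in place 7 of the order in the controls and in place 4 with the Mdm2 ASO, where its range (3626 to 4336) overlapped those of all 4. These places depend on the length used. By the union of annotated exons, Ctss was in place 5 in the controls and 2 with the Mdm2 ASO, and Ctsh in places 7 and 6.

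On CDAHFD the shares stayed closer. Ctss made up 6.94% ± 1.38 in the controls and 5.49% ± 2.13 with the Mdm2 ASO (n = 5 each), and Ctsl 34.7% ± 2.28 and 34.2% ± 2.83. The order of the 10 by level per kb was the same in both CDAHFD groups. The summed level was 34677 ± 1635 per kb in the controls and 30386 ± 2779 with the Mdm2 ASO, while on HFHC it was 25639 ± 1514 and 29008 ± 1094. Shares of one sum are bound to each other, so they carry no test of their own, and they rest on the transcript lengths named above.

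**Figure D3:**
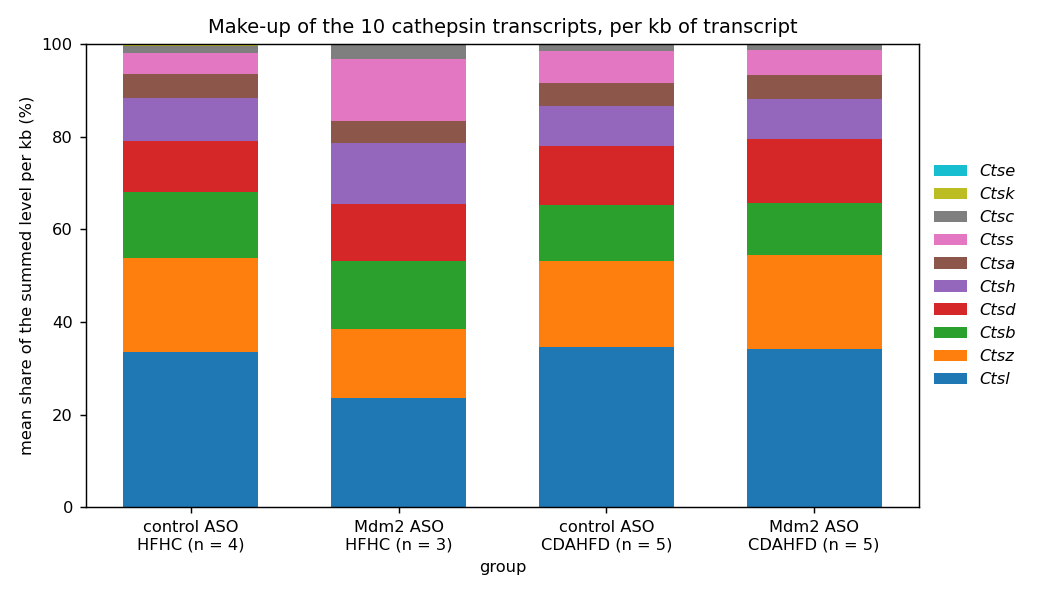
Mean share of each cathepsin gene in the summed level per kb of the 10 (stacked bars, in percent) in the 4 groups, with n in the axis labels. The share of Ctss is 4.38% and 13.4% in the HFHC groups and 6.94% and 5.49% in the CDAHFD groups, and Ctsk and Ctse are too low to be seen.

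Members varied together to different degrees within groups. With each library taken as its log2 deviation from its group mean, the 45 pairs of members had Pearson correlations from -0.53 to 0.90 over 17 libraries, with a median of 0.26. The highest were Ctsd with Ctss (0.90), Ctsb with Ctsd (0.85), Ctsb with Ctsc (0.76), Ctsb with Ctss (0.74) and Ctsk with Ctss (0.74). On HFHC alone (7 libraries) Ctss had 0.38 with Ctsd, -0.58 with Ctsb and 0.73 with Ctsk, and Ctsb had 0.29 with Ctsd and 0.78 with Ctsc. On CDAHFD alone (10 libraries) Ctss had 0.94 with Ctsd and 0.91 with Ctsb, but -0.13 with Ctsh, -0.03 with Ctsl and -0.48 with Ctsz. On that diet the deviations of Ctss from the group means thus went with those of Ctsd and Ctsb. Those of Ctsh and Ctsl showed little relation to Ctss, and those of Ctsz leaned the other way. All values of a library share its scaling factor, its RNA and its depth.

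Over the same 17 libraries, centred on each table's mean, the gene most like each member was sought among 11446 genes with a mean log2 value of at least 5 in both tables. It was Sirpa for Ctss (Pearson r = 0.99), Ccl6 for Ctsc (0.95), Grb2 for Ctsh (0.93), Arhgap25 for Ctsd (0.89) and Gusb for Ctsb (0.90). For the others it was Kynu for Ctsl (0.90), Mpdu1 for Ctsz (0.92), Sat1 for Ctsa (0.78), Tmem132a for Ctsk (0.88) and Slc4a4 for Ctse (0.93). Sirpa encodes an inhibitory receptor of myeloid cells and Ccl6 a chemokine made by them, whereas Kynu encodes kynureninase, an enzyme of tryptophan breakdown. These values describe likeness over samples that include the group differences.

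The other genes of the cathepsin system were read from lists. Among all tested genes 30.6% passed on HFHC, 16.8% upward and 13.8% downward. On CDAHFD 13.0% passed, 6.12% upward and 6.86% downward. Several list counts here and below are near these shares, and no list was tested as a set. Of 4 further cathepsins, Ctsw and Ctsg passed upward on HFHC, and none of the 3 tested passed on CDAHFD. Ctsg, which encodes the neutrophil granule enzyme cathepsin G that cathepsin C activates, had 1, 0, 0 and 2 reads in the controls on HFHC and 46, 25 and 36 with the Mdm2 ASO. It met the filter on low values only through the Mdm2 ASO libraries, so its call adds nothing to these reads. It had 0 reads in all 10 CDAHFD libraries and was not tested there. Ctsw, an enzyme of cytotoxic lymphocytes, rose by 0.84 on the log2 scale (adjusted p = 0.0174 by limma-trend). Ctsf and Ctso had log2 fold changes of -0.0018 and 0.04 on HFHC.

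Of 15 listed cathepsin inhibitors 7 were tested, and on HFHC 3 rose and 1 fell. Ctla2a, a gene for a protein that resembles a cathepsin propeptide, rose by 1.45 on the log2 scale, Serpinb6a by 1.15 and Cst3, the gene of secreted cystatin C, by 0.53. Cstb, the gene of the cytosolic inhibitor cystatin B, fell on both diets, to 975 ± 49.1 from 1524 ± 132 on HFHC (log2 -0.64, adjusted p = 4.47e-04 by limma-trend) and to 1412 ± 209 from 2372 ± 540 on CDAHFD (log2 -0.74, adjusted p = 0.00378 by limma-trend). It was the 1 inhibitor that passed on CDAHFD.

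Of 8 other lysosomal peptidases and their partners, 3 rose and 2 fell on HFHC, and 1 fell on CDAHFD. Lgmn, the gene of legumain, which processes several cathepsins into their mature chains, was at 2006 ± 284 in the controls and 3121 ± 242 with the Mdm2 ASO on HFHC (log2 0.64, adjusted p = 0.00217 by limma-trend). On CDAHFD it was at 2170 ± 326 and 1588 ± 430 (log2 -0.48, adjusted p = 0.0707 by limma-trend), and the 2 effects differed by -1.12 (adjusted p = 0.00214 by limma-trend). Napsa, the gene of the aspartic protease napsin A, rose by 2.38 and Prcp, a carboxypeptidase gene, by 1.01 on HFHC, where Dpp7 fell by 0.58 on the log2 scale. Scpep1, a gene for a serine carboxypeptidase like cathepsin A, fell by 0.51 on the log2 scale on CDAHFD (adjusted p = 0.00435 by limma-trend) and by 0.32 on HFHC (adjusted p = 0.0174 by limma-trend).

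Of 26 lysosomal hydrolases of lipids and glycans, 10 rose and 4 fell on HFHC (median log2 fold change 0.15), and 0 rose and 6 fell on CDAHFD (median -0.17). Asah1, the gene of acid ceramidase, rose by 0.95 on HFHC and fell by 0.57 on the log2 scale on CDAHFD, a difference of -1.52 (adjusted p = 5.27e-06 by limma-trend). Ppt1, a depalmitoylating enzyme gene, rose by 0.91, and the acid phosphatase genes Acp5 and Acp2 by 1.00 and 0.86 on HFHC. Lipa, which encodes the lysosomal acid lipase that releases cholesterol and fatty acids from lipoproteins, fell on both diets, by 0.88 on the log2 scale on CDAHFD (adjusted p = 9.90e-04 by limma-trend) and by 0.32 on HFHC (adjusted p = 0.0160 by limma-trend). Arsa, the gene of arylsulfatase A, also fell on both, by 0.40 on CDAHFD and by 0.84 on HFHC on that scale.

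Of 12 lysosomal membrane proteins, 2 rose and 5 fell on HFHC, and 0 rose and 4 fell on CDAHFD. The 2 that rose were Laptm5 (log2 2.71) and Cd68 (log2 1.94), genes best known from blood and macrophage cells, while Cd63 (log2 -1.53) fell. Lamp1, a main protein of the lysosomal coat, fell on both diets, by 0.55 on the log2 scale on CDAHFD (adjusted p = 0.00949 by limma-trend) and by 0.36 on HFHC (adjusted p = 0.0385 by limma-trend). The sialic acid exporter gene Slc17a5 fell on both as well, by 0.59 on HFHC and 0.41 on CDAHFD, and Laptm4a fell by 0.37 on CDAHFD. Of 18 subunits of the vacuolar proton pump, which acidifies the lysosome, 2 rose and 3 fell on HFHC, and 0 rose and 4 fell on CDAHFD. Tcirg1, the gene of the pump subunit a3 used by osteoclasts and immune cells, rose by 1.12 on HFHC, while Atp6v0a1 fell by 0.44 on the log2 scale. Atp6ap2, an accessory subunit gene, fell by 0.51 on the log2 scale on CDAHFD.

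Of 12 genes that sort enzymes to lysosomes, 5 rose and 3 fell on HFHC, and 1 rose and 3 fell on CDAHFD. The sorting receptor genes Sorl1 and Sort1 rose by 1.90 and 1.89 on HFHC. The mannose 6-phosphate receptor genes parted there, with M6pr at 0.23 (adjusted p = 0.0262 by limma-trend) and Igf2r at -0.38 (adjusted p = 0.00320 by limma-trend), and both fell on CDAHFD, by 0.37 and 0.29 on the log2 scale. Among 5 lysosome transcription factors, Tfeb (log2 0.83) and Tfe3 (log2 0.23), activators of lysosomal genes, rose on HFHC, and Zkscan3, known as a repressor of them, fell by 1.02 on the log2 scale. None of the 5 passed on CDAHFD by limma-trend, with Tfeb at 0.31 (adjusted p = 0.133).

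Of 8 genes of class II antigen loading, where cathepsin S acts, 3 rose on HFHC and none passed on CDAHFD. Ifi30, the lysosomal thiol reductase gene, was at 605 ± 73.5 in the controls and 1793 ± 184 with the Mdm2 ASO on HFHC (log2 1.57), and H2-DMb1 and H2-DMa, the peptide exchange factor, rose by 0.62 and 0.42. Cd74, the gene of the invariant chain that cathepsin S cuts, was at 4421 ± 683 and 3887 ± 720 (log2 -0.19, adjusted p = 0.375 by limma-trend), and H2-Aa, a class II chain, had a log2 fold change of -0.20 (adjusted p = 0.355 by limma-trend). H2-Ab1 (log2 -0.24), H2-Eb1 (-0.30) and Ciita (-0.24) did not pass either, and the median of the 8 was -0.19 on HFHC. Ctss thus rose together with Ifi30, H2-DMb1 and H2-DMa on HFHC, while the others of the list had negative estimates that did not pass the test.

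**Figure D4:**
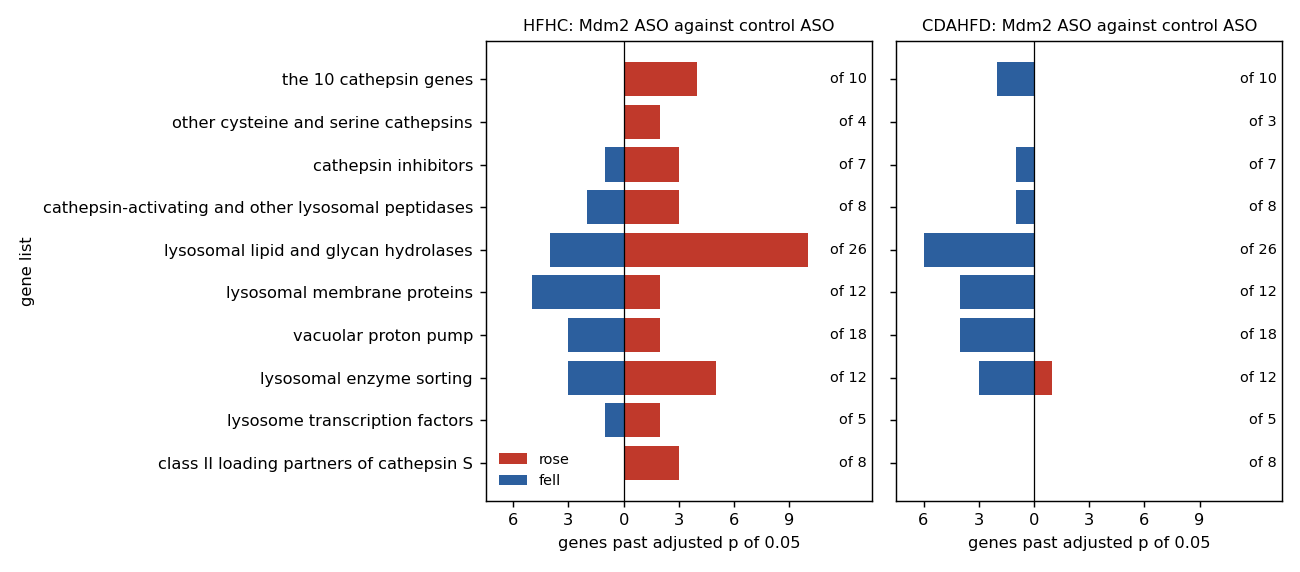
Number of genes that rose (right) and fell (left) at an adjusted p under 0.05 with the Mdm2 ASO on HFHC and CDAHFD, for the 10 cathepsin genes and 9 lists of related genes, with the number tested at the right edge. On CDAHFD the hydrolase list has 0 rising and 6 falling genes, against 10 and 4 on HFHC. Among all tested genes 30.6% passed on HFHC and 13.0% on CDAHFD. On HFHC the further cathepsins include Ctsg, which met the filter on low values only through the Mdm2 ASO libraries.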

How the data were processed

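Liver RNA was taken with a column kit and made into strand-specific mRNA libraries, per the labels' protocols. Per the submitters' processing notes, GRCm39, STAR 2.7.10b and featureCounts of Subread 2.0.3 were used. The deposited values are a normalized signal per gene, called TMM counts per the labels, in 1 table per diet with 0 columns from other samples. In every library 100.0% of the values were whole multiples (within 0.001) of 1 step, which gave back the reads.

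A gene was tested where its value reached 1 in at least the number of libraries of the smaller group. The test was limma-trend (limma 3.58.1, R 4.3.3) within each table, on the log2 of the value plus 0.5, with Benjamini-Hochberg adjustment over all tested genes and a threshold of 0.05. Fold changes are on that scale and understate low genes. The difference was an interaction contrast over genes that passed in both tables. edgeR 4.0.16 and DESeq2 1.42.0 on the recovered reads, quantile normalization, other pseudocounts and filters, array weights and leaving out each library were alternatives. The models were also run on simulated data, whose outcome is not given here and is no support for the calls above.

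Levels per kb used the shortest APPRIS principal transcript of GENCODE M21, matched by gene identifier for all 10 members. Replicates 6 and 7 of the HFHC Mdm2 ASO group were identical, while other replicate pairs differed in at least 18001 genes. The members, the gene lists and the tests were chosen with earlier results of these data known. The naming rule took the 10 members, Mdm2, up to 4 called genes per list and diet by smallest p, and the gene nearest to each member. Cd74, H2-Aa, Ctsf, Ctso, Lgmn on CDAHFD, Tfeb on CDAHFD, Tff2, and M6pr, Lipa, Arsa, Scpep1 and Lamp1 on HFHC, and the marker genes at 0 were named outside it, after their values were seen. The same holds for Clec4f, Timd4, Vsig4, Marco, Cd163, H2-Ab1, H2-Eb1 and Ciita on HFHC. One gene that the rule would name is not reported here.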

Additional observations from a re-analysis of the deposited data

Results flagged for a closer look

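For 4 members the effect of the Mdm2 ASO differed between the diets by the interaction contrast of limma-trend, CDAHFD minus HFHC. The differences in log2 fold change were -2.39 for Ctss, -1.53 for Ctsc, -0.92 for Ctsh and -0.47 for Ctsb. Ctss and Ctsc were above every control in all 3 HFHC libraries with the Mdm2 ASO, and Ctsc was below every control in all 5 CDAHFD livers. In the groups of 4 or 5 libraries, Dixon's criterion marked 0 of 30 sets of member values as holding a library that stood apart, where chance marks about 1 in 20. The HFHC Mdm2 ASO group has 3 libraries and was not tested.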

How the results depend on the processing

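Each of the 30 member results (10 genes, 3 contrasts) was recomputed under each alternative, 600 values in all, of which 558 kept direction and side of the threshold, 20 dropped below it, 17 rose past it and 5 changed sign. Ctsc on both diets, Ctss and Ctsh on HFHC and the differences of Ctss, Ctsc and Ctsh kept their calls under every alternative run. Signs turned for uncalled values: the differences of Ctsl (-0.0603) and Ctsz (-0.0027) after quantile normalization and of Ctsk (-0.0423) with array weights, Ctsa on HFHC (-0.0193 to 0.0563 over left-out libraries, negative without control replicate 5) and Ctsk on CDAHFD (-0.41 to 0.0242, positive without Mdm2 ASO replicate 7). The count of called members was 3 to 6 on HFHC and in the difference over all alternatives, and 1 to 3 on CDAHFD over left-out libraries. Over all genes, array weights called 8182 on HFHC and 5838 in the difference, against 5331 and 3832, and leaving out 1 library gave 1232 to 2283 on CDAHFD, against 2181. Quantile normalization moved the median of all genes on HFHC from -0.0061 to -0.11 and the calls from 2932 higher and 2399 lower to 2482 and 3725, and then called Ctsb higher (0.33) and Ctsk lower (-0.73). Without a filter on low values Ctsb lost its difference (adjusted p = 0.0586 by limma-trend), with more genes tested. Other causes were not tested.

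The labels share replicate numbers between diets. The deviations of same-numbered libraries had correlations of -0.066 to 0.105, with the own number best in 4 of 8 comparisons. Library 6-7 entered both as number 6 and as number 7. With so few libraries this check cannot decide whether the numbers pair them, and the main fit used no pairing. With a replicate block, 3 members and 3033 genes passed in the difference, and Ctsb did not (adjusted p = 0.0864 by limma-trend). With the merged library as number 7, a choice made after seeing the data, these were 3, 3105 and 0.159. Ctse and Ctsk had the fewest reads, 9 to 199 per library, and coefficients of variation of 17.8% to 49.7% within groups.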
